A study of Mus musculus with 6 samples.

Results

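Nephronectin, its receptor integrin alpha8 beta1, other integrin subunits that bind basement membrane, and the Fras-Frem complex were examined in whole mouse embryonic kidneys with and without Foxd1. The members were 9 named genes, Npnt, Itga8, Itgb1, Itga3, Itga6, Fras1, Frem1, Frem2 and Grip1, and all 9 were measured among the 19938 genes of the array that were tested. Each of the 9 had 1 row on the array. Kidneys were collected at E14.5, in mid gestation, from 3 litters of a cross between Foxd1+/- mice, and RNA of 2 kidney pairs from different litters was pooled for every one of the 6 arrays. There were 3 pools of Foxd1 null kidneys and 3 pools of kidneys of wild type littermates. The pools were separate animals but drew on the same 3 litters, embryos were not sexed, and no cell type was isolated. Foxd1 encodes a forkhead transcription factor of the stromal progenitors around the nephron progenitors, and the comparison asks which transcripts differ in kidneys that lack it.

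Nephronectin is a secreted basement membrane protein that the ureteric epithelium lays down facing the metanephric mesenchyme, where integrin alpha8 beta1 binds it. In mice, loss of either one reduces Gdnf in the mesenchyme and impairs outgrowth of the ureteric bud. Fras1, Frem1 and Frem2 form a complex in the basement membrane under epithelia, and Grip1 is the PDZ scaffold that carries Fras1 and Frem2 to the basal cell surface. In mice, defects of this complex cause blistering and failure of kidney formation, and in humans mutations of FRAS1, FREM2 or GRIP1 cause Fraser syndrome.

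All levels are the deposited log2 expression values. Differences are Foxd1 null minus wild type, taken between group means and given with the model's standard error (SE), and adjusted p is limma's two-sided p with Benjamini-Hochberg adjustment over all 19938 genes, with 0.05 as the threshold. Array medians ranged from 6.984 to 7.057. The Foxd1 row did not check the labels: its values were 9.71 to 10.05 in the pools labelled null and 9.40 to 9.69 in the wild type pools (difference 0.30, SE 0.11, adjusted p = 0.246). Which part of the gene the null allele lacks is not stated in the labels, so directions are between pools as labelled. Marker genes of neighbouring tissue stood high in some null pools, and adrenal markers were also raised, though less, in wild type pool 3. Relative to the mean of the 6 pools, the median of 6 adrenal cortex markers was 2.32 in null pool 3 and 0.14 in wild type pool 3. It was -0.67 to -0.57 in the remaining pools. That of 6 neuron and glia markers was 1.16 and 0.66 in null pools 2 and 3 and -0.74 to -0.08 in the other 4. Of either list 0 genes passed with limma. An unadjusted p under 0.05 was found for 4 of the neuronal and 0 of the adrenal markers, against 14.1% of all genes. Of 8 skeletal muscle markers Tnnt3 rose, a call that held in 1 of 6 leave-one-out fits, that without null pool 3 (adjusted p up to 0.163), and the list's median was 0.64, 0.31 and -0.02 in null pools 1, 2 and 3 and -0.56 to 0.01 in the wild type pools. Over all genes 1.64% rose and 0.767% fell, while of 9 nephron progenitor markers 1 rose and 1 fell. In addition, 3 of 8 endothelial and 3 of 8 macrophage markers rose. Few of these calls held without each pool: of the 6 leave-one-out fits Cited1, Pecam1, Kdr and Ptprc passed in 1, that without null pool 1, Tek in 2, Tyrobp in 4, and Osr1 and Mrc1 in all 6 (adjusted p up to 0.186, for Cited1). Eya1, which marks the metanephric mesenchyme, was above background in both genotypes in the authors' deposited table (expressed p 9.74e-07 in wild type and 1.48e-06 in null). Its difference here was 0.25 (SE 0.08, adjusted p = 0.198), with all null pools above all wild type pools. The part of neighbouring tissue and of these cell types in the results below was not tested. Each result is also given without each pool where that changes it. In whole kidneys, fewer cells of a type and less RNA per cell cannot be told apart.

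Of the 9 genes, Itga3 fell in the Foxd1 null kidneys, 0 rose and 8 did not pass the test. Itga3, the laminin receptor subunit of podocytes and of the ureteric and tubule epithelium, stood at 0.668 of the wild type level (log2 difference -0.58, SE 0.07, n = 3 pools per group, adjusted p = 0.00294). Over all genes 2.4% passed, 1.64% higher and 0.767% lower. Nephronectin and the membrane-anchored proteins Fras1 and Frem2 had means lower by 0.34 to 0.42 on the log2 scale, but none of these passed. Itga8, the receptor subunit for nephronectin, differed by 0.09 (SE 0.13). At an unadjusted p under 0.05 there were 5 of the 9 genes, Npnt, Itgb1, Itga3, Fras1 and Frem2, against 14.1% of all genes. The 3 Foxd1 null and 3 wild type pools did not overlap for 4 of the 9, Itga3, Fras1 and Frem2 on the lower side and Itgb1 on the higher side, against 8.04% of all genes on the lower and 11.5% on the higher side, 19.5% in all. The median difference of the 9 was -0.16, beside 0.01 over all genes.

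**Figure D1:**
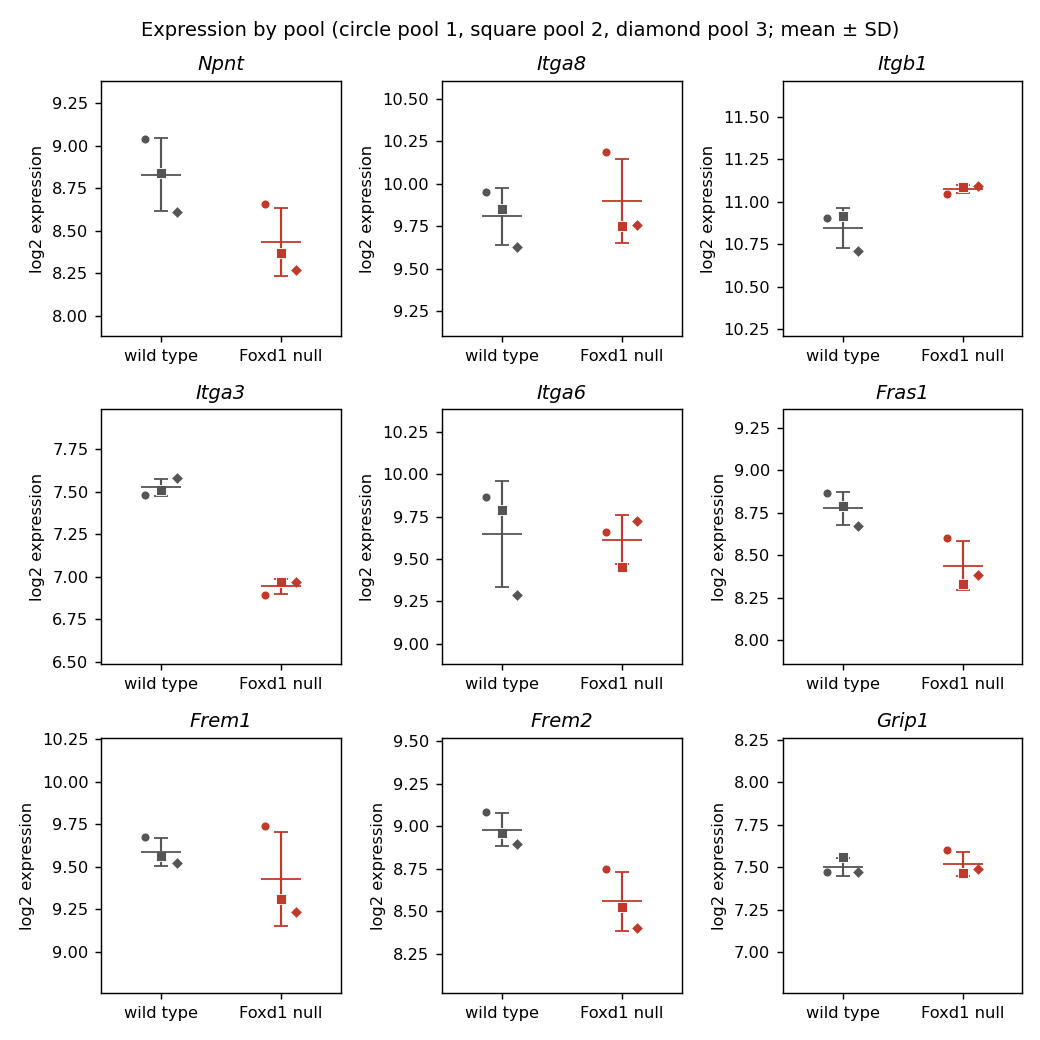
Log2 expression (vertical axis, each panel spanning the same range) of the 9 genes in the wild type (grey) and Foxd1 null (red) pools; points are pools, the long bar is the mean and the whiskers the SD of 3 pools. The groups of Itga3 are separated by more than 0.5, those of Fras1, Frem2 and Itgb1 by less, and the groups of the other 5 genes overlap.

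**Figure D2:**
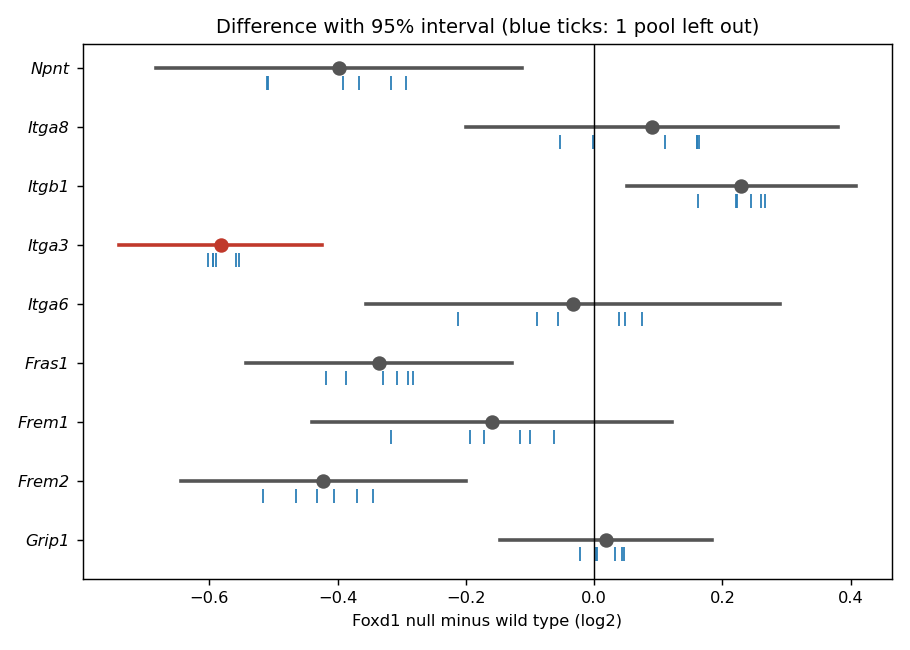
Difference between Foxd1 null and wild type pools (horizontal axis, log2) with its 95% interval for each gene; red marks adjusted p under 0.05, and blue ticks are the differences with 1 pool left out. The interval of Itga3 runs from -0.74 to -0.42, and the ticks of Itga8, Itga6 and Grip1 lie on both sides of 0.

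The promoters of Itga3, Npnt and Frem2 are shown because these were the members with the lowest means in the null pools relative to wild type. They are RefSeq windows of 300 bases on GRCm38.p6, lying mostly upstream of the annotated start nearest to the upstream edge of the gene, each on the minus strand: chr11:95076665-95076964 for Itga3, chr3:132950242-132950541 for Npnt and chr3:53657306-53657605 for Frem2. Capitals mark GGGCGG, the GC box, on either strand. 7 of the 9 genes had a window in that table; Itga6 and Fras1 did not.
Itga3: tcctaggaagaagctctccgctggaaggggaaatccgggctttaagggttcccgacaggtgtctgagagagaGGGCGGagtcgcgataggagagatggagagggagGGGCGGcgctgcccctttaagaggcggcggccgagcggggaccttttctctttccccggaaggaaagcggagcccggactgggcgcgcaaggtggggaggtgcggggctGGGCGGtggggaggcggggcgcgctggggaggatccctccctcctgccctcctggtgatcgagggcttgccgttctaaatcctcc
Npnt: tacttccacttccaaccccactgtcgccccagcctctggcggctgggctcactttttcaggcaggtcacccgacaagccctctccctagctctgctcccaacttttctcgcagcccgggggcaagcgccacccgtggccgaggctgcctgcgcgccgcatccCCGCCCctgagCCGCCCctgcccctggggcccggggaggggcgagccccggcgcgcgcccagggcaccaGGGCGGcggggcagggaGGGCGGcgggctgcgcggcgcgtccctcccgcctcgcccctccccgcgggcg
Frem2: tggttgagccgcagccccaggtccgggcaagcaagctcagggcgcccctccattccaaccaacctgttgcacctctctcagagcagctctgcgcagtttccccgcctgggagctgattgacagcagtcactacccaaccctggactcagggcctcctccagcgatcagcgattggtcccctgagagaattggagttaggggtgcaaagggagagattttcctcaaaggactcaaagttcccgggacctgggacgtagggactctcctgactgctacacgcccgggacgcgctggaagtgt
The GC box occurred 3 times in the Itga3 window, 4 times in that of Npnt and 0 times in that of Frem2, while 35.7% of all 32851 mouse promoter windows hold it at least once. The forkhead core TGTTTAC, searched on both strands, was in 0 of the 7 windows and in 3.6% of all windows, and TATAAA was in 0 of the 7 and in 13.6%. No match says only that these letters are not in this window. The G and C content was 66.7% for Itga3, 76.7% for Npnt and 60.3% for Frem2, against a median of 52.7% over all windows.

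Npnt, the ligand, stood at 8.66, 8.37 and 8.27 in Foxd1 null pools 1, 2 and 3 and at 9.04, 8.84 and 8.61 in wild type pools 1, 2 and 3. Null pool 1 lay just above wild type pool 3, so the groups overlapped, and the spread within the wild type pools (0.43) was as wide as the difference between the groups. The means were 8.43 ± 0.20 and 8.83 ± 0.21 (SD, n = 3 each), a log2 difference of -0.40 (SE 0.13, 95% interval -0.68 to -0.11, adjusted p = 0.179). The difference was between -0.51 and -0.29 when any 1 pool was left out, and it passed in 0 of those 6 fits and in 1 of 16 alternatives in all (adjusted p 0.0357 to 0.484).

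Itga8, which pairs with Itgb1 on mesenchymal cells and later on mesangial cells, stood at 10.19, 9.75 and 9.76 in the null pools and at 9.95, 9.85 and 9.62 in the wild type pools. Null pool 1 was the highest of the 6 and wild type pool 3 the lowest, while null pools 2 and 3 lay below wild type pools 1 and 2, so the groups overlapped. The log2 difference was 0.09 (SE 0.13, adjusted p = 0.828), and its 95% interval allows levels from 0.87-fold to 1.30-fold of wild type. The sign turned without null pool 1 (-0.05) and without wild type pool 3 (-0.0021).

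Itgb1, the beta subunit that alpha3, alpha6 and alpha8 share, stood at 11.05, 11.09 and 11.09 in the null pools and at 10.91, 10.92 and 10.71 in the wild type pools. All 3 null pools lay above all 3 wild type pools. The log2 difference of 0.23 (SE 0.08, 95% interval 0.05 to 0.41) did not pass (adjusted p = 0.219), nor in any of 16 alternatives (adjusted p 0.0957 to 0.475). Itgb1 is made by most cell types of the kidney. The median of 12 markers of stroma, mural cells and smooth muscle was also higher in each null pool than in each wild type pool. Relative to the mean of the 6 pools it was 0.23 to 0.47 in the null and -0.48 to -0.35 in the wild type pools. At the threshold 10 of the 12 were higher (1.64% of all genes were), led by Lum, Acta2 and Actg2. Their part in the level of Itgb1 was not tested.

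Itga3 stood at 6.89, 6.97 and 6.97 in the null pools and at 7.48, 7.51 and 7.58 in the wild type pools. The 3 null pools spanned 0.07 and the 3 wild type pools 0.10, and a gap wider than either spread lay between the groups. The means were 6.94 ± 0.04 and 7.53 ± 0.05 (SD, n = 3 each), and the 95% interval of the null level ran from 0.60 to 0.75 of wild type. The null mean lay below the array medians (6.984 to 7.057). The authors' deposited table has no row for Itga3, so no expressed p was available and the size of the fall is uncertain. The call held without any 1 pool (adjusted p up to 0.0199, difference -0.60 to -0.55) and in 15 of 16 alternatives; a plain two-sample test per gene gave an adjusted p of 0.114. Null pools 2 and 3, with high neuronal markers, differed from null pool 1 by about 0.07. In null pool 1 the neuronal and adrenal marker medians were below the mean of the 6 pools. The skeletal muscle median there was the highest of the 6 pools (0.64). The part of neighbouring tissue in the level of Itga3 was not tested.

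Some markers of the cells that make alpha3 integrin also differed between the groups. Among 11 markers of the renal vesicle and tubule 7 fell, led by Slc12a1, Lrp2 and Lhx1, whereas 0.767% of all genes fell. The list's median was -0.49 to -0.24 in the null pools against 0.27 to 0.45 in the wild type pools. Among 7 podocyte markers 2 fell, Clic5 by 0.49 (SE 0.09) and Wt1 by 0.34 (SE 0.07), and the list's median was -0.09 to -0.08 against -0.02 to 0.16; Synpo differed the other way, by 0.29, and did not pass. Among 13 markers of the ureteric tip and duct 2 fell, Emx2 by 0.62 (SE 0.13) and Cdh1 by 0.51 (SE 0.09), while Ret and Calb1 differed the other way, by 0.34 and 0.32, and did not pass. The median of that list was -0.05 to 0.02 in the null pools and 0.00 to 0.05 in the wild type pools, so its groups overlapped. Slc12a1, Lrp2 and Lhx1 fell without any 1 pool, whereas of the 6 leave-one-out fits Clic5 and Cdh1 passed in 2, those leaving out null pool 1 or wild type pool 3 (highest adjusted p 0.106 and 0.105), and Wt1 and Emx2 in 1, that without null pool 1 (adjusted p up to 0.172 and 0.158). The part of these cell types in the fall of Itga3 was not tested.

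The genes whose levels across the 6 pools were most like those of Itga3, by root mean square distance between profiles centred on their own mean, were Slco1a6 (distance 0.03 in log2 units), Clec18a (0.06), Gm266 (0.07), Asb9 (0.09) and Tmem150c (0.09). Their differences between genotypes ranged from -0.60 for Gm266 to -0.47 for Tmem150c. Differences near that of Itga3 follow from how these genes were picked and are not a separate result. Slco1a6 was dim, with means of 4.74 in the null and 5.27 in the wild type pools, below the array medians. Slco1a6 encodes an organic anion transporter and Clec18a a C-type lectin.

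Itga6, a laminin receptor subunit that pairs with Itgb1 or Itgb4, stood at 9.66, 9.45 and 9.73 in the null pools and at 9.86, 9.79 and 9.29 in the wild type pools. Wild type pool 3 was the lowest of the 6, and the wild type pools spanned 0.57, the widest range within a group among the 9 genes. The log2 difference was -0.03 (SE 0.14, 95% interval -0.36 to 0.29, adjusted p = 0.954). The authors' deposited table gives Itga6 a fold of -1.05 with a p of 0.669, from a test that is not stated. The unadjusted limma p here was 0.824. Expression there was above background in both genotypes (expressed p 0.00154 in wild type and 0.00228 in null).

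Fras1, a membrane-anchored protein of the Fras-Frem complex, stood at 8.60, 8.33 and 8.38 in the null pools and at 8.86, 8.79 and 8.67 in the wild type pools. All 3 null pools lay below all 3 wild type pools, by the narrow margin between null pool 1 and wild type pool 3. The log2 difference was -0.34 (SE 0.09, 95% interval -0.54 to -0.13, adjusted p = 0.112). It passed without null pool 1 (-0.42, adjusted p = 0.0338) and in none of the other 15 alternatives (adjusted p up to 0.369). The authors' deposited table gives Fras1 a fold of -1.29 with a p of 0.00559, from a test that is not stated. Here it was 1.26-fold lower, with an unadjusted limma p of 0.004965. The expressed p there was 0.000648 in wild type and 0.0105 in null.

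Frem2, the other membrane-anchored member of the complex, stood at 8.75, 8.52 and 8.40 in the null pools and at 9.09, 8.96 and 8.90 in the wild type pools. Its groups did not overlap either. The log2 difference was -0.42 (SE 0.10, 95% interval -0.64 to -0.20), 1.34-fold lower, and missed the threshold (adjusted p = 0.0654). It passed in 6 of 16 alternatives, among them the fit without null pool 1 (-0.52, adjusted p = 0.0149), and had its highest adjusted p, 0.348, with the plain two-sample test.

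Frem1, the secreted member, stood at 9.74, 9.31 and 9.23 in the null pools and at 9.68, 9.56 and 9.52 in the wild type pools. Null pool 1 was the highest of all 6 pools, while null pools 2 and 3 were the lowest. The log2 difference was -0.16 (SE 0.13, 95% interval -0.44 to 0.12, adjusted p = 0.645), and it was -0.32 (adjusted p = 0.0882) without null pool 1. Grip1, the scaffold, stood at 7.60, 7.47 and 7.49 in the null pools and at 7.47, 7.56 and 7.47 in the wild type pools. The pools of Grip1 were intermingled within 0.13 log2 units (difference 0.02, SE 0.07, 95% interval -0.15 to 0.18, adjusted p = 0.95).

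Several of the 9 genes shared their highest pool. Pool 1 held the highest value of its group in both genotypes for Npnt, Itga8, Fras1, Frem1 and Frem2, which is 5 of the 9 genes, against 11.4% of all genes. The same was true of 7 of 13 ureteric tip and duct markers, 4 of 11 renal vesicle and tubule markers, 5 of 14 Gdnf-Ret pathway genes and 5 of 15 laminin and basement membrane genes. Other lists held fewer: 2 of 9 nephron progenitor, 1 of 7 podocyte and 1 of 8 endothelial markers. So did 1 of 22 other integrin subunits, 1 of 18 integrin adhesion proteins and 1 of 7 relatives of the Fras-Frem complex. There were 0 among the other alpha8 beta1 ligands and the stromal, macrophage, skeletal muscle, neuronal and adrenal markers. The labels do not say that a shared pool number marks a shared litter or batch, and this pattern was noticed after the values were seen.

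**Figure D3:**
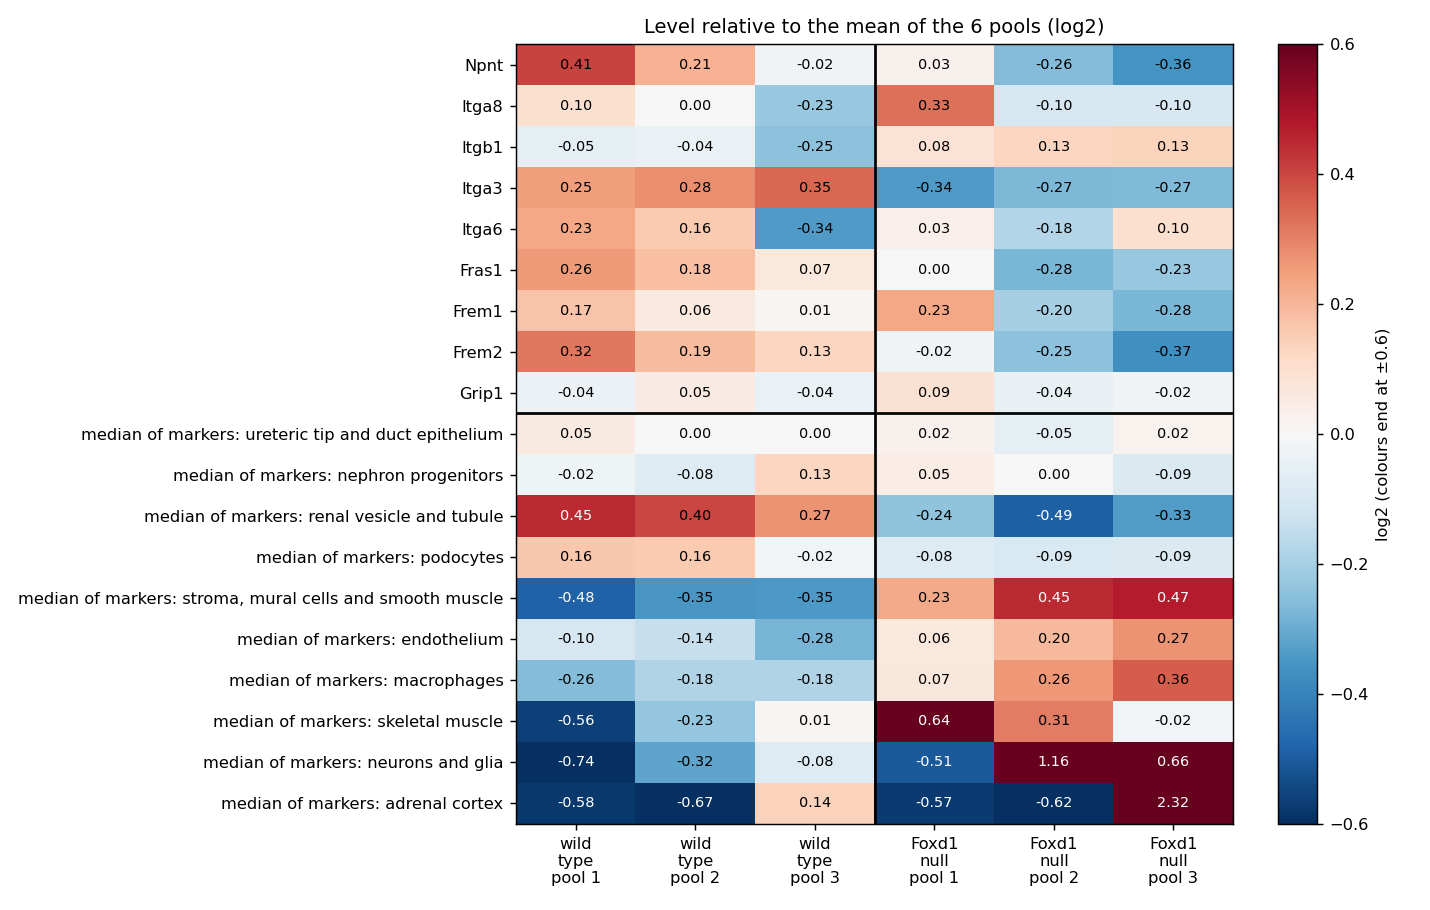
Log2 level of each of the 9 genes (upper rows) and the median of each marker list (lower rows) in each pool relative to the mean of the 6 pools. Itga3, Fras1, Frem2 and the renal vesicle and tubule markers are above the mean in all 3 wild type pools and below it in all 3 null pools. Fras1 is at only -0.0031 and Frem2 at -0.02 in null pool 1. The adrenal cortex markers reach 2.32 in null pool 3.

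Among the 22 other integrin subunits 3 rose, 1 fell and 18 did not pass, with a median difference of 0.04. Over all genes 1.64% rose and 0.767% fell. Itga4, a fibronectin and Vcam1 receptor subunit, rose by 0.68 (SE 0.08, adjusted p = 0.00241). Its levels were 8.58, 8.69 and 8.68 in the null pools and 7.87, 8.07 and 7.98 in the wild type pools, and the call held without any 1 pool. The collagen receptor subunits Itga11 and Itga2 rose by 0.64 (SE 0.10, adjusted p = 0.00906) and 0.54 (SE 0.11, adjusted p = 0.0319). Itga11 missed the threshold without null pool 2 (adjusted p = 0.051), and Itga2 missed it without any pool other than null pool 1 (adjusted p up to 0.112). Itgb6, the epithelial partner of alpha v, fell by 0.86 (SE 0.12, adjusted p = 0.00704), from 7.34, 7.35 and 6.94 in the wild type pools to 6.52, 6.32 and 6.22 in the null pools, and did so without any 1 pool (adjusted p up to 0.0485). In the authors' deposited table Itgb6 has an expressed p of 0.124 in wild type and 0.25 in null, so the size of its fall is uncertain. The authors' deposited table gives Itgb6 a linear fold of -1.45, beside 1.81-fold lower here, and Itga2 a fold of 1.45, beside 1.45-fold higher here. Both have a p under 0.05 there, from a test that is not stated. With the 4 subunits among the members, 3 of 26 integrin subunits rose and 2 fell. The 3 that rose did so in pools where the stromal markers given above were also high, and the part of those cells was not tested.

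**Figure D4:**
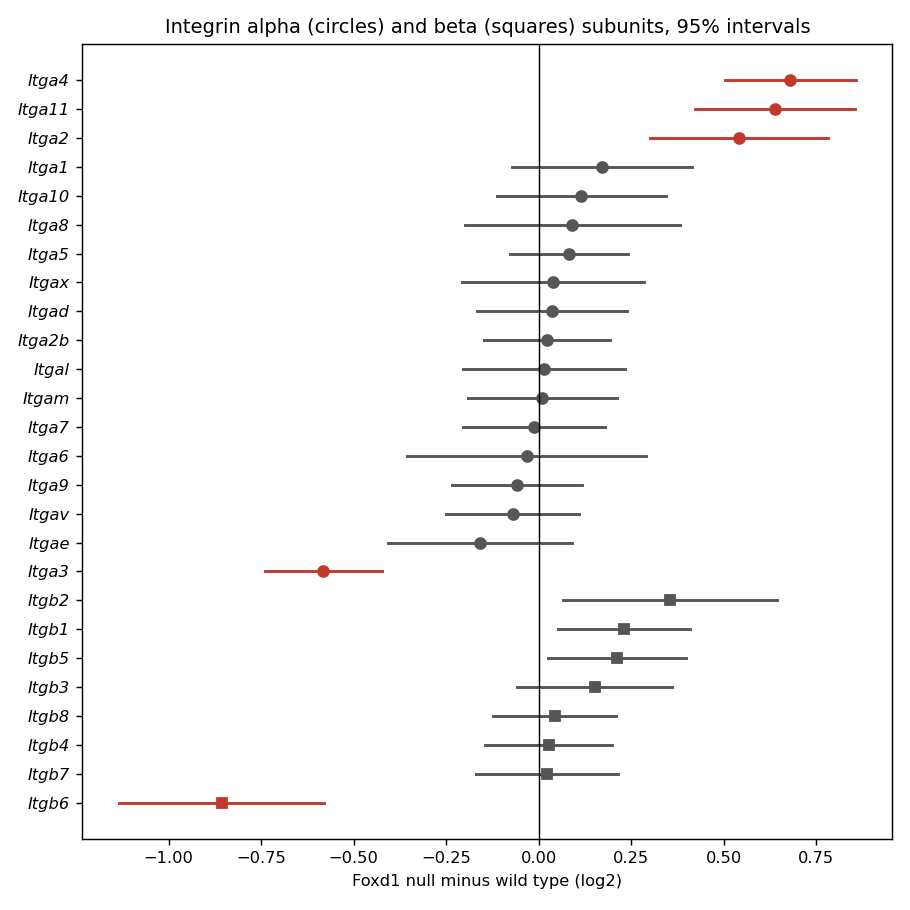
Difference between Foxd1 null and wild type pools (horizontal axis, log2) with 95% intervals for 26 integrin subunits, alpha subunits as circles and beta subunits as squares, ordered by difference within each kind; red marks adjusted p under 0.05. Itga4, Itga11 and Itga2 lie to the right and Itga3 and Itgb6 to the left of the others.

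Of 5 other measured ligands of integrin alpha8 beta1, 1 rose and 4 did not pass, where 1.64% of all genes rose. Tenascin C (Tnc) rose by 0.68 (SE 0.12, adjusted p = 0.0214), from 7.89, 7.68 and 8.15 in the wild type pools to 8.42, 8.71 and 8.63 in the null pools. Its call was lost without null pool 2 or 3 or wild type pool 1 or 2 (adjusted p up to 0.0997). Fibronectin (Fn1) differed by 0.32 (SE 0.10, adjusted p = 0.177), and by 0.43 without null pool 1, where it passed (adjusted p = 0.0173). Egfl6, the closest relative of nephronectin, differed by 0.08 (SE 0.16, adjusted p = 0.884), with 1 high value of 9.31 in wild type pool 3 and a difference of 0.29 without that pool, -0.04 without wild type pool 1 and -0.01 without pool 2. All 5 differences lay above 0 with all pools in the fit, as did those of 10858 of the 19938 genes, where Npnt lay at -0.40.

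Of 15 measured laminins and other basement membrane genes 2 rose, 1 fell and 12 did not pass, where 1.64% of all genes rose and 0.767% fell. Lama1, the laminin alpha chain of early epithelial basement membranes, fell by 0.85 (SE 0.11, adjusted p = 0.0047). It stood at 7.90, 7.58 and 7.79 in the null pools and at 8.76, 8.65 and 8.41 in the wild type pools, and fell without any 1 pool (adjusted p up to 0.0294). The authors' deposited table gives Lama1 a linear fold of -1.61 with a p of 0.00272, from a test that is not stated. Here Lama1 was 1.80-fold lower, with an unadjusted limma p of 2.333e-05. Its expressed p in the authors' table is 0.00704 in wild type and 0.0506 in null, so the null level was not clearly above background. Nidogen 1 (Nid1), which links laminin to collagen IV, rose by 0.42 (SE 0.08, adjusted p = 0.0322), and Lama2, the laminin alpha chain of muscle and mesenchyme, rose by 0.37 (SE 0.08, adjusted p = 0.042). The call of Nid1 held in 1 of 6 leave-one-out fits, that without null pool 1 (adjusted p up to 0.136), and the call of Lama2 in 2, those without null pool 1 or wild type pool 3 (up to 0.173). Lama2 also missed the threshold with quantile normalization (0.0551) or median centring (0.0567). Lama5, a laminin chain bound by alpha3 beta1, differed by -0.13 (SE 0.08, adjusted p = 0.55).

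Of 18 integrin adhesion proteins, cytoplasmic except for the membrane protein Cd151, 1 rose and 17 did not pass, where 1.64% of all genes rose. Talin 2 (Tln2), which activates integrins, rose by 0.33 (SE 0.07, adjusted p = 0.0388), a call that held in 1 of 6 leave-one-out fits, that without null pool 1 (adjusted p up to 0.162), and was lost with quantile normalization (0.0551) or median centring (0.0607). Of 7 relatives and partners of the Fras-Frem complex 0 passed with limma and 1 had an unadjusted p under 0.05, against 14.1% of all genes. A plain two-sample test also called 0, but over all genes it called only 1 higher and 1 lower. It could therefore not show an absence of change. Fbln1, a basement membrane protein, differed by 0.26 (SE 0.09, adjusted p = 0.212), and Crim1, a transmembrane protein that regulates growth factors, by 0.12 (SE 0.08, adjusted p = 0.543).

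Of 14 measured genes of the Gdnf-Ret pathway of ureteric budding and its regulators, 0 passed with limma. An unadjusted p under 0.05 was found for 6 of the 14, against 14.1% of all genes. A plain two-sample test called 0, but it called only 1 higher and 1 lower over all genes and could not show an absence of change. In mice Gdnf lies downstream of nephronectin, but the list as a whole was not tested as a readout of nephronectin. Gdnf itself stood at 8.01, 7.82 and 7.88 in the null pools and at 7.91, 8.05 and 8.13 in the wild type pools, overlapping groups with a difference of -0.12 (SE 0.09, adjusted p = 0.602). Ret, the receptor on ureteric tips, stood at 8.03, 7.95 and 8.01 in the null pools and at 7.73, 7.70 and 7.54 in the wild type pools. All null pools lay above all wild type pools, but the difference of 0.34 (SE 0.08, adjusted p = 0.057) did not pass, nor did it in any leave-one-out fit; it passed in 3 of 16 alternatives. Sall1, a transcription factor of the mesenchyme, differed by -0.43 (SE 0.10, adjusted p = 0.059), and passed in 6 of 16 alternatives, among them the fit without null pool 1 (-0.54, adjusted p = 0.00941).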

How the data were processed

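The values used are the deposited log2 expression values, 1 column per pool. Per the labels' protocols, cDNA was made from 50 ng of RNA with NuGEN kits and biotin-labelled. Neither the program behind these values nor a genome build was given in the sources used here. The authors also deposited a table of 488 rows with signed linear folds (a score here), p-values, and group medians in natural log units; it was used only for the values credited to it, and the test behind its p-values is not stated.

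Gene names came from the platform annotation. Of 35556 rows 21789 had 1 symbol, 1621 several and 12146 none. Per gene the row with the highest mean was kept, and no filter on level was applied. The comparison used limma's lmFit and eBayes (version 3.58.1, under R 4.3.3) with all 6 arrays and no term besides genotype. Python 3.11.15 with numpy 2.4.6 and pandas 2.3.3 handled tables and promoter windows, and matplotlib 3.10.9 drew the plots. Precision is limited by the small number of arrays.

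The members and lists were chosen with earlier results of these data known. Named genes were all members, up to 4 passing genes per context list (else the 2 with the lowest p), up to 3 passing genes per marker list, and the 5 genes nearest to each passing member. Fn1, Egfl6, Lama5, Gdnf, Calb1 and Synpo were named after their values were seen. Eya1 was also named outside these rules. Alternatives were another row per gene, all rows tested together, other variance models, array weights, a plain two-sample test, quantile normalization, median centring, a filter leaving out the dimmest 30% of genes, a replicate block and each pool left out.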

Additional observations from a re-analysis of the deposited data

How the results depend on the processing

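The count of the 9 genes past the threshold, 0 higher and 1 lower, was 2 lower with an intensity trend, with the trend and robust variance, with array weights or with the filter on dim genes (Itga3 and Frem2), 0 lower with the plain two-sample test, and 1 to 3 lower with 1 pool left out; 0 were higher in all 16 alternatives. With the replicate number as a block 3 were lower, Itga3, Frem2 (adjusted p = 0.0295) and Npnt (adjusted p = 0.0357). The numbers were not shown to pair the pools: deviations from the group means of same-numbered pools correlated at 0.093, 0.049 and 0.06 over all rows, though each pool correlated best with its own number, a hint from the data and not from the design. Over all genes 326 rose and 153 fell; with p-values adjusted over all rows of the array the counts among these gene rows were 61 and 29, with the plain test 1 and 1, and leaving out 1 pool gave 127 to 572 and 64 to 171. Of the context genes 7 rose and 2 fell; all rows tested together gave 1 and 0, the plain test 0 and 0, the block 3 higher, and leaving out 1 pool 1 to 8 higher and 2 to 4 lower. Uncalled differences near 0 changed sign: with 1 pool left out Itga8 ranged from -0.0536 (without null pool 1; -0.0021 without wild type pool 3) to 0.1632, Itga6 from -0.2121 to 0.0751 (0.0479 without null pool 2, 0.0383 without wild type 2) and Grip1 from -0.0228 (without null pool 1) to 0.0471; Egfl6, of the context genes, ranged from -0.0397 (without wild type pool 1; -0.0139 without 2) to 0.2878. Grip1 was also -0.009 with quantile normalization and -0.0132 with median centring. The median difference of all genes moved from 0.01 to -0.01 with quantile normalization and -0.02 with median centring. The causes were not tested. With 3 pools per group, the SE of 0.07 to 0.14 for the 9 genes limits which differences can be called.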
